A study of Drosophila melanogaster with 8 samples.

Results

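The paralogous genes *bab1* and *bab2* (*bric-à-brac 1* and *2*) lie side by side on chromosome arm 3L, and the binding of Dll and Sp1 across their locus in the larval leg disc is described here. The locus was taken as a fixed window of 155 kb, chr3L:1030000-1185000 in dm3 coordinates, and a ChIP-seq peak belonged to it when it shared at least 1 bp with the window. By this rule 27 of 12319 Dll peaks (0.219%) and 23 of 9850 Sp1 peaks (0.234%) were found there, 50 peaks of 22169 in all. The study's intersection list, which combines peaks of both factors with open chromatin and with binding sites for Dll, Sp1, Mad and Pan, has 1 region in the window and gives *bab2* as its nearest gene. None of the peaks crossed an edge of the window.

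Both genes encode nuclear BTB-domain proteins that bind DNA. In the leg they are known for their partly redundant role in the tarsus, the segmented distal part of the leg, where they are needed for the identity and separation of the tarsal segments. Outside the leg they are known for terminal filament formation in the ovary and for abdominal pigmentation. Dll is the homeodomain factor that specifies the distal leg, and Sp1 is a zinc finger factor needed for leg specification and growth. A leg and antennal enhancer of the locus that responds to Dll is known, but its position was not mapped on the coordinates used here. By RefSeq (Release 6 of the genome, newer than dm3) the gene order along the arm is *CG9205*, *bab1*, *bab2* and *CG13912*, and no annotated gene starts between *bab1* and *bab2*. Coordinates of that release cannot be set against the peaks, so no peak is assigned here to an exon, an intron or a promoter.

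Chromatin came from leg discs of wandering L3 larvae, in pools of 100 larvae, each giving its 6 leg discs. Dll was precipitated with an anti-Dll antibody from *yw* larvae (3 ChIP libraries and 1 input library), and Sp1 with an anti-GFP antibody from larvae with Sp1-GFP (BAC), a GFP-tagged copy of Sp1 on a bacterial artificial chromosome inserted in the genome (3 ChIP libraries and 1 input library). Each factor was thus measured in its own genotype and with its own antibody, and a difference between the lists cannot be told apart from a difference between genotypes or antibodies. The whole disc was used, so binding in the tarsal region cannot be told apart from binding elsewhere in the disc. Each peak carries 1 score, the −log10 of its q value against input, and both lists begin at a score of 4. Peaks were called on merged libraries, so there is no spread between replicates, and the read depth is unknown. A missing peak means only that no call passed the threshold.

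The 50 peaks fell into 5 groups separated by long stretches without any peak. Peaks of either factor were placed in 1 group when the gap between them was at most 5 kb, a distance chosen after the positions were seen. In order along the arm, the groups are called here groups 1 to 5. The empty stretches between them were 52250, 26096, 36181 and 9637 bp long and together took up 80.1% of the window. Over the 6 chromosome arms 2L, 2R, 3L, 3R, 4 and X, the median gap between neighbouring peaks of either list was 497 bp, and 3.07%, 7.22%, 4.82% and 18.5% of the 14866 gaps were at least as long as these 4 stretches. The 14866 gaps include those within groups, whereas the stretches exceed 5 kb by the definition of a group. These shares are therefore low by construction, and gaps between groups alone were not compared. At the edges, the first peaks inside the window began 4526 bp (Dll) and 4345 bp (Sp1) from its lower end, and the last ended 6571 and 6674 bp from its upper end. The nearest peaks below the window were 69776 bp (Dll, score 10.01) and 69870 bp (Sp1, score 5.83) outside it. Above the window the nearest were an Sp1 peak 3990 bp away with a score of 5.34 and a Dll peak 23118 bp away with a score of 26.93.

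**Figure D1:**
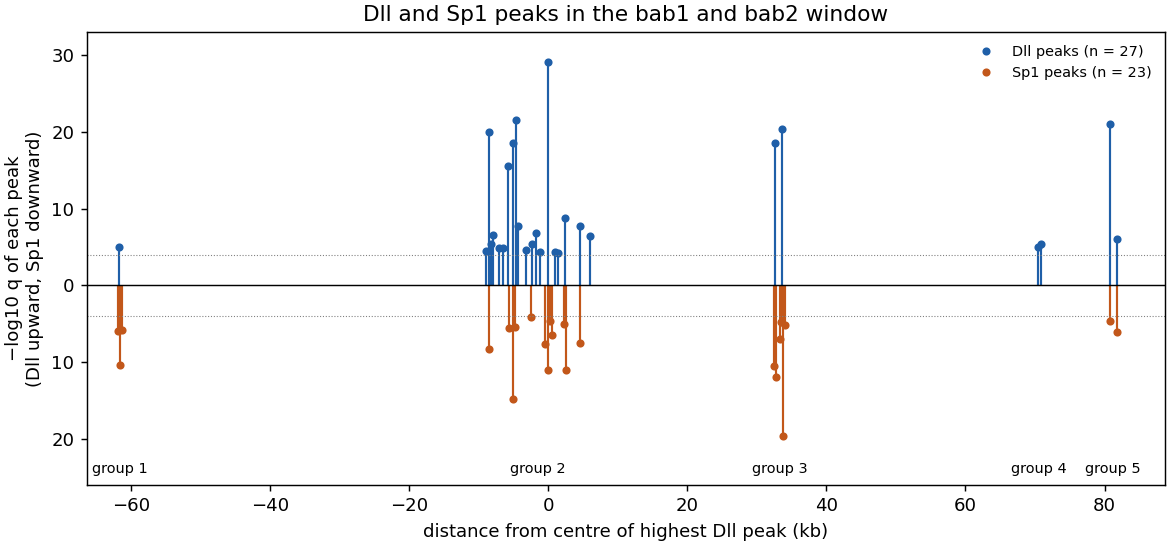
Score of each of the 27 Dll peaks (upward) and 23 Sp1 peaks (downward) at the *bab1* and *bab2* locus, as −log10 q, against the distance in kb of the peak's centre from the centre of the highest Dll peak. Dotted lines mark the lowest score in the lists, 4. The peaks form 5 groups, and group 2 around the highest Dll peak holds 20 of the 27 Dll peaks.

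Group 2, from 1087284 to 1102517, was the densest. Its 15233 bp held 20 Dll peaks (74.1% of those in the window) and 12 Sp1 peaks (52.2%). Of the 4091 groups formed in the same way on the 6 arms, 37 (0.904%) had at least as many Dll peaks and 100 (2.44%) had at least as many Sp1 peaks. The median group had 2 Dll peaks and 1 Sp1 peak. These counts use peaks as called, several of them closely spaced, and the ranking was not repeated with joined peaks. Group 2 was also picked as the group of the window with the most Dll peaks, with a gap of 5 kb set after the positions were seen. The shares of 0.904% and 2.44% are therefore low in part by that choice. Dll peaks covered 47.9% of the length of group 2 and Sp1 peaks covered 12.0%. The Dll scores in this group ran from 4.22 to 29.10 with a median of 6.52, and the Sp1 scores from 4.16 to 14.87 with a median of 6.99. All 12 Sp1 peaks of the group shared sequence with a Dll peak, while 8 of its 20 Dll peaks did so with an Sp1 peak (72.1% of all Sp1 peaks and 43.1% of all Dll peaks have such a partner).

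The highest Dll peak of the locus lay in group 2, from 1095757 to 1096960, with a score of 29.10. It ranked 156th in the whole Dll list, at percentile 98.7. This peak of 1203 bp overlapped 4 Sp1 peaks, all of them wholly inside it. The Sp1 scores, in order along the arm, were 7.68, 11.09, 4.70 and 6.45, at percentiles 62.3, 82.1, 17.8 and 48.2 of the Sp1 list. None of these Sp1 peaks was in the top 10% of its list, although the Dll peak was.

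The second highest Dll peak, with a score of 21.53 at percentile 95.2, lay in the same group, from 1091516 to 1091902. It was the fourth of 5 Dll peaks in an almost unbroken run from 1089663 to 1092101, in which neighbouring peaks were only 63 to 70 bp apart. The smallest gap between peaks anywhere in the Dll list was 51 bp. The 5 scores along this run were 4.92, 15.55, 18.51, 21.53 and 7.68, so the 3 inner peaks were higher than both outer peaks. With the low peak next to it, from 1089171 to 1089365 (score 4.85), the run makes up the longest cluster of the locus when peaks of either list within 500 bp are joined. That cluster was 2930 bp long, and 4.79% of all such clusters on the 6 arms were at least as long. It also held 3 Sp1 peaks, among them the second highest Sp1 peak of the locus, from 1091242 to 1091427, with a score of 14.87 at percentile 91.0. This Sp1 peak lay inside the Dll peak from 1091071 to 1091452 with a score of 18.51, at percentile 92.2. The other Sp1 peaks of the cluster were low, with scores of 5.52 and 5.48.

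A further high Dll peak of group 2 lay near its lower end, from 1087531 to 1087990, with a score of 20.01 at percentile 93.8. It contained an Sp1 peak with a score of 8.32. The remaining Dll peaks of the group had scores of at most 8.82. Where the group thinned out towards its upper end, the Dll peak from 1098550 to 1098883 (score 8.82) overlapped 97.5% of an Sp1 peak with a score of 5 and 63.6% of the next one, with a score of 11.09, and the Dll peak from 1100740 to 1101041 (score 7.79) contained an Sp1 peak with a score of 7.53. In the latter pair the percentile ranks of both factors lay close together, at 56.7 and 60.2.

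**Figure D2:**
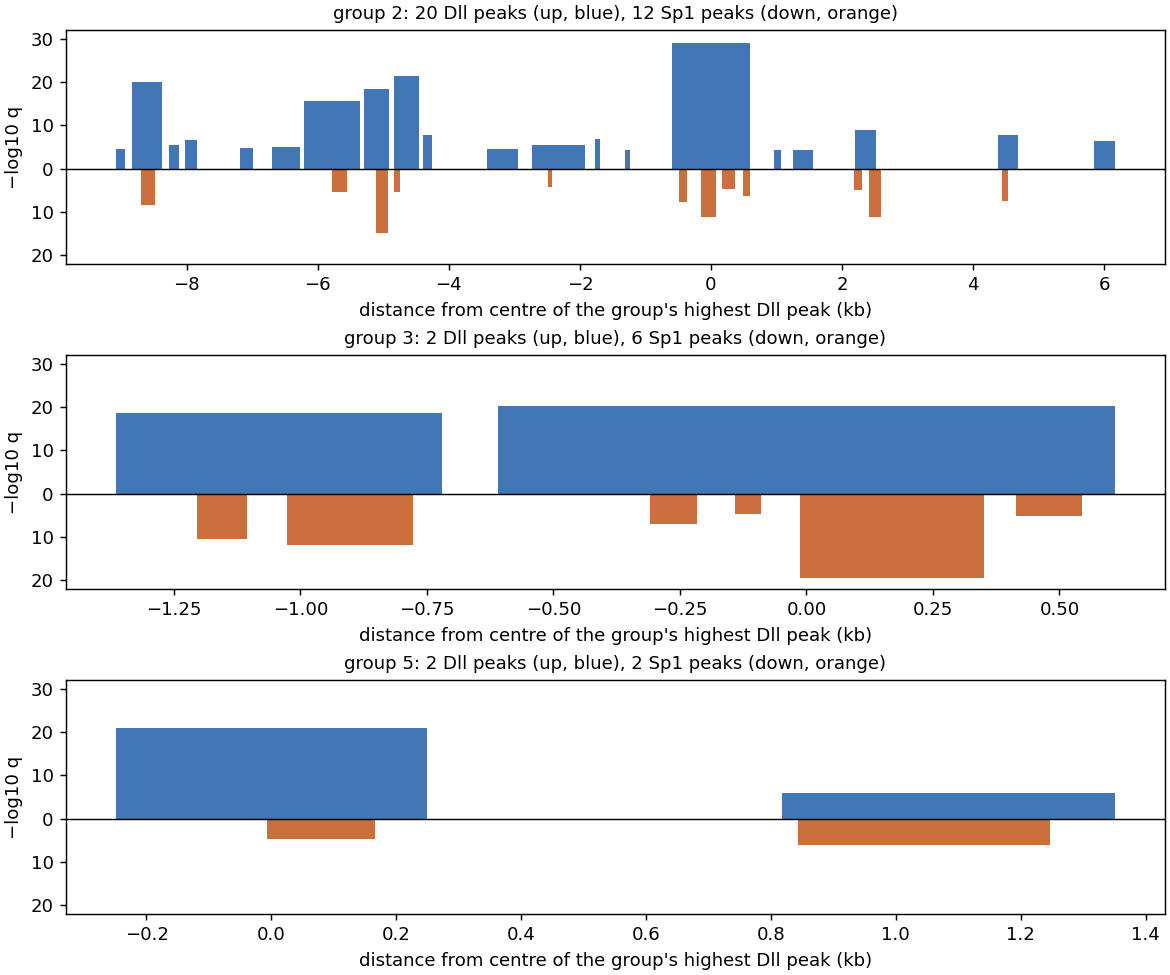
Peaks of groups 2, 3 and 5 drawn to scale along the DNA, as distance in kb from the centre of the group's highest Dll peak, with the height of each bar giving the −log10 q of Dll (up) or Sp1 (down). Group 2 shows 20 Dll peaks of very unequal height with 12 Sp1 peaks beneath 8 of them, and group 3 shows 6 Sp1 peaks within 2 broad Dll peaks.

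Group 3, from 1128613 to 1130586, had more Sp1 than Dll peaks, and both of its Dll peaks were in the top 10% of their list. It consisted of 2 Dll peaks 111 bp apart, which together covered 94.4% of its 1973 bp, and of 6 Sp1 peaks, which covered 50.0%. The counts depend on how calls were split. With peaks of a list within 500 bp joined, Dll formed a single stretch of 1973 bp and Sp1 a single stretch of 1748 bp. The Dll peak from 1128613 to 1129257 had a score of 18.54, at percentile 92.4. It contained Sp1 peaks from 1128773 to 1128871 and from 1128951 to 1129200, with scores of 10.54 and 11.99. The Dll peak from 1129368 to 1130586 was the longest of the locus, at 1218 bp, and had a score of 20.36 at percentile 94.3. It contained 4 Sp1 peaks with scores of 7.05, 4.81, 19.61 and 5.12. The third of these, from 1129964 to 1130327, was the highest Sp1 peak of the locus, at percentile 95.7 of its list and in position 428 from the top. No other pair of the locus had both scores this high.

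Only these 2 Dll peaks of the locus, the highest in group 2 and the longest in group 3, overlapped 4 Sp1 peaks. In the whole list 111 Dll peaks, or 0.901%, overlapped 4 or more, and the largest number was 9. When Sp1 peaks within 500 bp were joined, each of the 2 Dll peaks of the locus overlapped a single Sp1 stretch.

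Group 5, from 1176830 to 1178429, contained the third highest Dll peak and the region of the intersection list. The Dll peak, from 1176830 to 1177327, had a score of 21.02 at percentile 94.9, whereas the Sp1 peak inside it, from 1177072 to 1177244, had a score of only 4.70 at percentile 17.8. At the neighbouring position 570 bp further along the arm, scores of both factors were low and close to each other. There, a Dll peak from 1177897 to 1178429 had a score of 5.99 (percentile 39.2), and the Sp1 peak inside it, from 1177922 to 1178326, had a score of 6.04 (percentile 44.1). This Sp1 peak was the longest of the locus, at 404 bp, and covered 75.9% of the Dll peak. The intersection region near *bab2* lay within it, ended at the same base and began 6 bp later, so that it covered 98.5% of the shared segment. Its Dll peak was among the weaker ones of the intersection list, since 4.98% of the regions lay in a Dll peak of lower rank, and 13.1% lay in an Sp1 peak of lower rank. None of the higher pairs of groups 2 and 3 held a region of that list. The open chromatin data and the binding sites that the list also required were not used here.

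Groups 1 and 4 were small and low in Dll. In group 1, from 1034345 to 1035034, a Dll peak with a score of 5.06 overlapped an Sp1 peak from 1034531 to 1034798 with a score of 10.38. This Sp1 peak, at percentile 79.3, was flanked by Sp1 peaks with scores of 5.99 and 5.83, which were the only Sp1 peaks of the locus without a Dll peak. Both lay within 500 bp of the Dll peak of that group. Group 4, from 1166767 to 1167193, had 2 Dll peaks with scores of 4.94 and 5.44 and no Sp1 peak.

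Nearly every Sp1 peak at *bab1* and *bab2* touched a Dll peak by 1 bp or more. Of the 23 Sp1 peaks, 21 overlapped a Dll peak, or 91.3% (95% Wilson interval 73.2% to 97.6%), against 72.1% in the whole Sp1 list, a value just below that interval. Of the 27 Dll peaks, 13 overlapped an Sp1 peak, or 48.1% (95% Wilson interval 30.7% to 66.0%), near the 43.1% of the whole Dll list. The intervals cover counting error only and treat neighbouring peaks as independent, and the difference from the whole lists was not tested. Dll peaks also covered more of this window (6.83%) than of the remaining span (4.14%). The part of this coverage in the overlap was not tested. With the top 25% of each list alone, 5 of the 7 Sp1 peaks (71.4%) overlapped a Dll peak that was itself in that class, against 54.3% of the 2468 Sp1 peaks of that class in the whole list. The shares were lower with a stricter definition of overlap: when at least 50% of both peaks had to be shared, 8.70% of the Sp1 peaks of the locus and 20.0% of all Sp1 peaks had a partner, as did 7.41% of the Dll peaks of the locus and 16.0% of all Dll peaks.

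At this locus the presence of an Sp1 peak went with the height of the Dll peak. All 8 Dll peaks in the top 25% of the Dll list had an Sp1 peak, against 74.9% of the 3067 Dll peaks of that class in the whole list. The 13 Dll peaks with an Sp1 peak had scores from 5.06 to 29.10 with a median of 18.51, and the 14 without had scores up to 7.68 with a median of 4.93. The median percentile ranks were 92.2 and 19.5, while the corresponding ranks in the whole list were 69.9 and 38.0. Length moved with the score, since the median Dll peak was 497 bp long with an Sp1 peak and 148 bp long without. A longer peak is more easily overlapped, and the part of length in this difference was not tested. Across the 27 Dll peaks the Spearman correlation of length and score was 0.561, against 0.618 across the whole list. Peaks of 1 locus share their libraries and their surroundings, so these are descriptions of the called peaks and not of replicates.

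**Figure D3:**
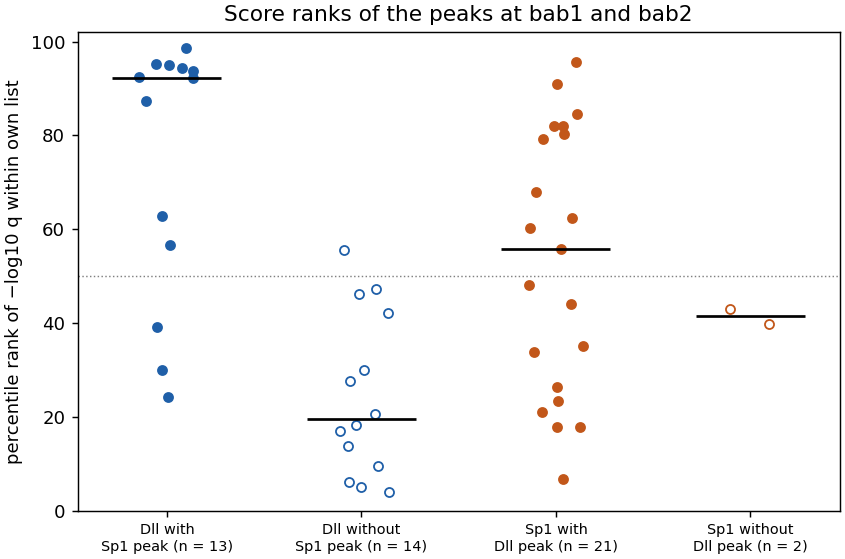
Percentile rank of −log10 q of each peak at *bab1* and *bab2* within its own list, split by overlap with a peak of the other factor, with horizontal bars at the medians and a dotted line at 50. Dll peaks with an Sp1 peak had a median rank of 92.2 and those without a median of 19.5, with no peak of the latter group above 55.5.

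Of the Dll peaks, 7 of 27 (25.9%) were in the top 10% of their list, a class that holds 10.1% of all Dll peaks because of ties. Some of these 7 were close neighbours, with a gap of 64 bp in group 2 and of 111 bp in group 3. The share was not taken anew for joined peaks. Of the Sp1 peaks, 2 of 23 (8.70%) were in the top 10%, a class that holds 9.89% of all Sp1 peaks. The medians, however, were near the middle of both lists. The median rank was 42.3 for Dll (order-statistic interval 20.7 to 87.5) and 48.2 for Sp1 (33.9 to 79.3). In the top 25% of the lists stood 8 of the 27 Dll peaks (29.6%, against 24.9% of all Dll peaks) and 7 of the 23 Sp1 peaks (30.4%, against 25.1% of all Sp1 peaks), both near the share of the whole list. The Dll scores had a median of 6.44, against 7.09 in the whole list, and the Sp1 scores a median of 6.45, against 6.52. Median lengths were 321 bp for Dll and 130 bp for Sp1, against 293 and 130 bp in the whole lists.

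The 2 lists formed 21 overlapping pairs at the locus, and the Sp1 peak lay wholly inside the Dll peak in 18 of them (85.7%, against 80.1% of the 7195 pairs in the whole lists). The shared segments were 53 to 404 bp long, with a median of 130 bp, and covered between 4.35% and 97.9% of the Dll peak. The Dll peak had the higher percentile rank in 16 of the 21 pairs (76.2%, 95% Wilson interval 54.9% to 89.4%), and the same held for 66.7% of all pairs. That interval treats the pairs as independent. It is likely too narrow, because 4 of the Dll peaks entered several pairs each. In 5 of the 21 pairs (23.8%) both peaks were in the top 25% of their lists, against 18.9% of all pairs. Those in group 3 had Sp1 scores of 10.54, 11.99 and 19.61, and the others, in group 2, had 14.87 and 11.09. The Spearman correlation between the scores of both factors was −0.0762 over the 21 pairs, in which 4 Dll peaks appear more than once, and 0.218 over all pairs.

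**Figure D4:**
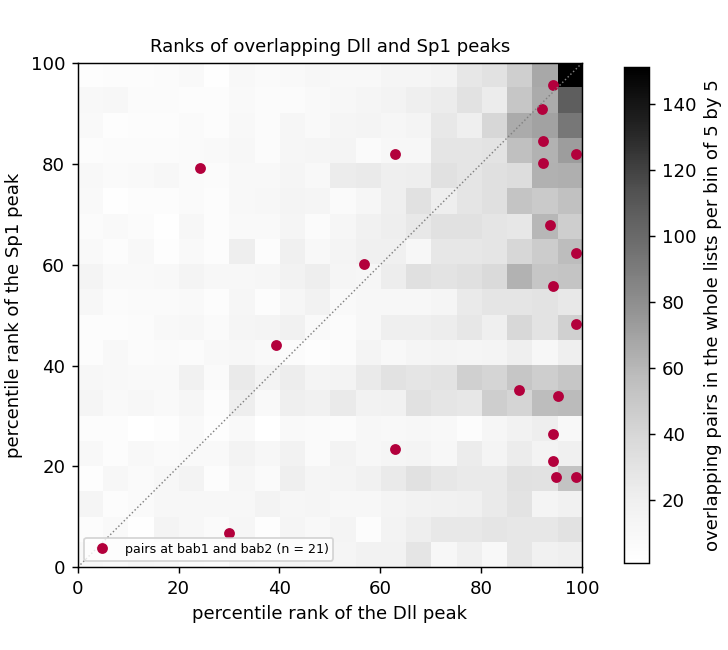
Percentile rank of the Sp1 peak against that of the Dll peak for the 21 overlapping pairs at *bab1* and *bab2* (red points), over the number of pairs of the whole lists in bins of 5 by 5 percentiles (grey). The dotted line marks equal ranks, and 16 of the 21 points lie on its Dll side.

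The density of peaks at the locus was compared with that over the rest of the genome. There were 174 Dll peaks per Mb in the window, 1.71 times the 102.1 per Mb over the rest of the 6 arms (exact Poisson interval of the ratio 1.12 to 2.48). For Sp1 the density was 148 per Mb, 1.82 times the 81.4 per Mb of the rest (1.16 to 2.74). Poisson intervals treat peaks as independent and are too narrow for clustered peaks. Group 2 alone held 20 of the 27 Dll peaks. With scores of 6 or more alone the ratios were 1.45 (0.794 to 2.44) and 1.82 (0.969 to 3.11), with intervals that include 1. The intervals of both factors also included 1 for joined peaks (1.48, 0.767 to 2.59, for Dll and 1.40, 0.669 to 2.57, for Sp1) and in the top 25% of the lists (2.02, 0.870 to 3.97, and 2.22, 0.891 to 4.57). In these settings the ratios stayed above 1 but rested on fewer peaks, so the intervals do not settle whether the density was higher. Group 2 held most of the peaks counted: leaving out its peaks over the same 155 kb, which can only lower the ratio and was chosen after seeing the data, gave 0.442 for Dll and 0.872 for Sp1. When the 6 arms were laid out in 771 windows of 155 kb side by side, the median window had 13 Dll and 11 Sp1 peaks. At least 27 Dll peaks were found in 124 of these windows (16.1%), and at least 23 Sp1 peaks in 112 (14.5%). Dll peaks covered 6.83% of the *bab1* and *bab2* window and 4.14% of the remaining span, and Sp1 peaks covered 2.46% and 1.50%.

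The same values were taken in windows of the same length around 3 other genes of the distal leg. They were centred on fragments that the study tested near *ss*, a selector gene of the antenna and tarsus, *tal*, which encodes short peptides needed for tarsus formation, and *Dll* itself. The study chose these fragments where both factors had peaks, and the windows are therefore not a neutral reference. The *ss* window had 18 Dll and 19 Sp1 peaks, the *tal* window 38 and 26, and the *Dll* window 34 and 31. In the *ss* window 9 of 19 Sp1 peaks (47.4%, 95% Wilson interval 27.3% to 68.3%) had a Dll peak, which lies below the interval at *bab1* and *bab2*. In the *tal* and *Dll* windows the shares were 73.1% (53.9% to 86.3%) and 77.4% (60.2% to 88.6%), with intervals that overlap that of *bab1* and *bab2*. The *bab1* and *bab2* window had fewer groups than the others, 5 against 9 (*ss*), 7 (*tal*) and 12 (*Dll*). Its fullest group held 20 Dll peaks, against at most 7, 14 and 10, with peaks counted as called and not joined. For Sp1 the most in a group was 12, the same as in the *Dll* window, against 7 in both the *ss* and *tal* windows. The gap of 5 kb that defines the groups was chosen after the *bab1* and *bab2* positions were seen. The share of Dll peaks with an Sp1 peak was lower in the *ss* (22.2%) and *tal* (36.8%) windows and higher in the *Dll* window (52.9%). The highest Sp1 score was lower at *bab1* and *bab2*, at 19.61, than in the *ss* (39.77), *tal* (31.75) and *Dll* (63.05) windows. The highest Dll score, 29.10, lay between the 18.98 of *ss* and the 30.81 and 33.77 of *tal* and *Dll*. These values stand side by side without a test, since a single merged list was called per factor.

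**Figure D5:**
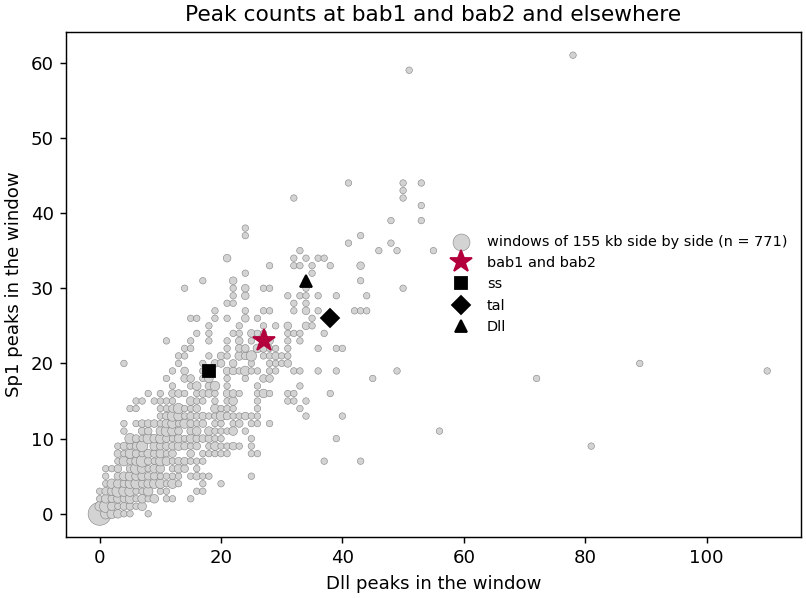
Number of Sp1 peaks against number of Dll peaks in 771 windows of 155 kb side by side on the 6 arms (grey, with larger circles where several windows have the same numbers), in the *bab1* and *bab2* window (star, 27 and 23) and in the windows around *ss*, *tal* and *Dll* (black). The *bab1* and *bab2* window lies between that of *ss* and those of *tal* and *Dll*.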

How the data were processed

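Reads were mapped to dm3 by the authors (Burrows-Wheeler Aligner), who called peaks with MACS2 (version 2.0.9 per the submitters' processing notes) on merged ChIP libraries. Their deposited values are the −log10 q of each peak, for regions defined at a p of 0.01 and kept at a q of 0.0001. The methods mention both triplicate pools and merged duplicates, so which libraries were merged is unclear. How depth and merging affected scores and the splitting of calls was not tested.

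The comparison of both lists used pandas 2.3.3, numpy 2.4.6 and scipy 1.17.1 (Python 3.11.15), with figures in matplotlib 3.10.9. Starts were read as counted from 0, and positions are printed as listed. Percentile ranks were taken within each list, with ties averaged. Ratios of density used the span from the first to the last peak on each arm. Intervals are at 95% and treat peaks or pairs as independent. Overlap of at least 1 bp and joining of peaks without a gap between them were tested on simulated lists. Joining across 500 bp or 5 kb and the other overlap rules were not tested in this way. The members were chosen with earlier results of these data known. Named peaks are the 3 highest and the longest of each list, pairs with both peaks in the top 25%, peaks of the intersection region, the longest cluster and those at the edges. Others named to complete a group were chosen after their values were seen. Open chromatin data, dm3 sequence and dm3 gene models were not used here. No test was run.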

Additional observations from a re-analysis of the deposited data

How the results depend on the processing

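No paired analysis was possible because the peaks were called on merged libraries, and for the same reason no replicate could be left out. Of 68 values under alternatives, 44 stayed within 1.5 times the count or inside the interval of the value reported, and 24 moved. At scores of 6 or more, 14 Dll and 13 Sp1 peaks were left, covering 4.51% and 1.68% of the window. In the top 25% of each list, 8 Dll and 7 Sp1 peaks covered 3.64% and 1.01%. Of these Sp1 peaks, 71.4% overlapped a Dll peak of the same class, while all 7 overlapped a Dll peak of the full list. The median Sp1 rank, taken anew within the cut list, was 28.4. Requiring 50% of each peak to overlap left 7.41% of Dll and 8.70% of Sp1 peaks with a partner, against 16.0% and 20.0% of the whole lists. Allowing gaps of up to 500 bp gave 74.1% and 100%. Joining peaks within 500 bp gave 12 Dll and 10 Sp1 peaks, 83.3% and 100% of them with a partner. A window wider by 10 kb on each side was covered to 6.05% by Dll and 2.21% by Sp1, and 1 narrower by 10 kb to 2.09% by Sp1, with 100% of Sp1 peaks on a Dll peak. The interval of the density ratio included 1 for Dll in the wider window (1.51, 0.995 to 2.20) and for Sp1 in the narrower (1.64, 0.971 to 2.59). Without the peaks of group 2 the density ratios were 0.442 for Dll and 0.872 for Sp1. Apart from those set by fewer or longer peaks, the causes of these moves were not tested. Since the lists hold only peaks that passed the threshold, and read depth is unknown, weaker binding between the groups could not be measured.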
